A study of Homo sapiens with 6 samples.

Results

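Antisense RNAs are transcripts made from the strand opposite a known gene, and their symbols join the name of that gene, the sense partner, to -AS and a digit. The 234 antisense RNAs described here were chosen from the 56632 genes of the tables by such a symbol and by a mean of at least 1 TPM (a level corrected for transcript length and for library size) over all 6 libraries. Of the 1713 genes with such a symbol, the other 1479 lay below that level. The RNA was poly(A)-selected from HCT116, a human cell line established from a colorectal carcinoma, after 2 transfections with a pool of siRNAs targeting the nuclear RNA-binding protein Matrin3 (siMatrin3) or with non-targeting siRNA as the control (siCTRL). Each of the 2 groups had 3 libraries, which the study describes as biological triplicates, and the labels give 72 hours between the transfections and 48 hours to harvest. All libraries came from 1 cell line, and transient siRNA lowers a transcript without removing it.

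Many antisense RNAs are long noncoding RNAs that are spliced and polyadenylated but less abundant than the mRNA they face. Some start near the promoter of their partner and run away from it, others cross its exons or lie within its introns, and a few are known to act on the partner's chromatin, splicing or stability, while others work away from their own locus or have no known role. Because they face another gene, reads must keep their strand to be assigned. The libraries were made with a stranded kit, but the sources used here do not state whether strand was used in counting, so reads from bases that an antisense RNA shares with an opposite exon may not be told apart from those of the partner.

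The libraries held 40808173 to 54185650 expected counts, RSEM's estimates of reads per gene. MATR3, which encodes Matrin3, had 95.2, 112 and 111 TPM in siMatrin3 libraries, against 186, 180 and 176 TPM in siCTRL libraries, and fell by 0.93 on the log2 scale (adjusted p = 7.67e-05, edgeR quasi-likelihood test with Benjamini-Hochberg adjustment). MATR3 was lower in each siMatrin3 library than in any siCTRL library. The fall of 0.93 is that of counts, and over 15 alternative fits, some of them on TPM, the log2 fold change was -0.98 to -0.76. Over the antisense RNAs tested, siCTRL replicate 2 stood apart and lay 0.080 above the siCTRL mean in mean log2 CPM, with the other siCTRL libraries 0.044 and 0.036 below it. Among 9 epithelial markers, EPCAM, KRT8, KRT18, KRT19 and CDH1 were abundant (mean 72.7 to 1180 TPM), CDX2 averaged 8.22 TPM, VIL1 averaged 0.40 TPM, and the intestinal genes CDX1 and LGR5 were under 0.01 TPM on average. These markers summed to 2691 to 2917 TPM in siMatrin3 libraries, against 2947 to 3097 TPM in siCTRL libraries, with no overlap. KRT18, a keratin gene, was the marker called (log2 fold change -0.15, adjusted p = 0.033, edgeR), and its call was lost without any library other than siCTRL replicate 1 (adjusted p = 0.051 to 0.14), with a length offset (0.057) and with limma on TPM (0.088 and 0.089). The part of the epithelial markers' levels in the results below was not tested. The 11 matched markers of blood, stromal, endothelial and neuronal cells summed to 16.6 to 20.6 TPM in siMatrin3 libraries and 15.4 to 17.4 TPM in siCTRL libraries. COL1A1 (mean 15.8 TPM) gave nearly all of that sum, and PTPRC, COL1A2 and DCN were at 0 in every library.

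To show where the antisense RNAs that changed most begin, promoter windows of 4 of them are given from RefSeq (GRCh38.p14), each reaching 250 bases before to 50 bases after the annotated start and read in the direction of the RNA. PRRT3-AS1 and HMGA2-AS1 were the strongest rises, SYT15-AS1 the deepest fall, and CD27-AS1 the fall that held in most alternative fits. Capitals mark GGGCGG, the GC box, or its reverse complement, and neither CCAAT nor TATAAA was found in any of the 4 windows on either strand.
PRRT3-AS1 (chr3:9947154-9947453, plus strand): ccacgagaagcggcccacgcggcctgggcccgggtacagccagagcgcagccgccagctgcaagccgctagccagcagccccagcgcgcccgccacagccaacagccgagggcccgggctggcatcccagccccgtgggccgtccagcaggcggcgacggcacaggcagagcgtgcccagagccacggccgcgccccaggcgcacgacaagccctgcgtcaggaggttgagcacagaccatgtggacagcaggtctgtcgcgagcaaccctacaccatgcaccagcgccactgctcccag
HMGA2-AS1 (chr12:65882276-65882575, minus strand): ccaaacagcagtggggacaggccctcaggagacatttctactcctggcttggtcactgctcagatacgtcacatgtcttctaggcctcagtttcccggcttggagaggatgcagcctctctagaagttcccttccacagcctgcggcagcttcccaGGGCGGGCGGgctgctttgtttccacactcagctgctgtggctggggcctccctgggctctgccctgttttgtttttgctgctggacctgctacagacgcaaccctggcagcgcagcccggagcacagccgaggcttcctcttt
CD27-AS1 (chr12:6451468-6451767, minus strand): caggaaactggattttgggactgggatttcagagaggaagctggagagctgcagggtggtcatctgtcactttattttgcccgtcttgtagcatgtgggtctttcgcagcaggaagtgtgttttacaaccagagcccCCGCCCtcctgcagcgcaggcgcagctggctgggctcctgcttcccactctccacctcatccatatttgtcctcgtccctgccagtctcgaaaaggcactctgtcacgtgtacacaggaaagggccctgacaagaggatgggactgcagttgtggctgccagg
SYT15-AS1 (chr10:46598096-46598395, minus strand): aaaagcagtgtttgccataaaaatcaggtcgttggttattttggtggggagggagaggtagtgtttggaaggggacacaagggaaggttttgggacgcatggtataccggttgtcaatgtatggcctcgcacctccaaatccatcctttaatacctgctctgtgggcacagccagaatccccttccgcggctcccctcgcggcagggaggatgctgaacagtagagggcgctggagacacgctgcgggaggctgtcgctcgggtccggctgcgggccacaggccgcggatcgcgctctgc
The PRRT3-AS1 window was GC-rich (72.7%) and held 28 CpG dinucleotides but no GC box. The HMGA2-AS1 window held 2 overlapping GC boxes and 9 CpG, the CD27-AS1 window 1 GC box and 8 CpG, and the SYT15-AS1 window no GC box and 19 CpG. RefSeq held a window for 173 of the 234 antisense RNAs. A GC box was present in 56.6% of these, against 44.6% of the 27305 RefSeq promoters, TATAAA in 4.62% against 12%, and CCAAT in 33.5% against 35.7% (both strands searched). The median was 23 CpG per window for the antisense RNAs and 14 for all promoters. A motif match describes the letters only and is no evidence of a bound factor.

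Expressed antisense RNAs were mostly scarce. Their median level was 3.24 TPM, with 69 under 2 TPM, 132 from 2 to 10 TPM and 33 at 10 TPM or more, and 198 reached 1 TPM in every library. The 10 highest held 27.0% of the summed TPM of all 234. Highest was EPB41L4A-AS1, which also hosts the small nucleolar RNA SNORA13 in its transcript, with a mean of 75.2 TPM. It was followed by THAP9-AS1 (53.6 TPM), TUBA1B-AS1 (45.5 TPM), RCC2-AS1 (38.5 TPM), VPS9D1-AS1 (36.6 TPM), PHLDA1-AS1 (35.5 TPM), OIP5-AS1 (24.97 TPM), PAX8-AS1 (24.9 TPM), MRPL20-AS1 (22.1 TPM) and ELFN1-AS1 (22.0 TPM). The libraries of EPB41L4A-AS1 lay above those of all others, and from THAP9-AS1 down each of these RNAs overlapped the next in the order. Just inside the limit lay PPP1R26-AS1 (1.05 TPM), CD44-AS1 (1.04 TPM) and UBE2D3-AS1 (1.02 TPM), and just outside WEE2-AS1 and LIPT2-AS1 (0.980 TPM each) and FOXP4-AS1 (0.968 TPM).

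**Figure D1:**
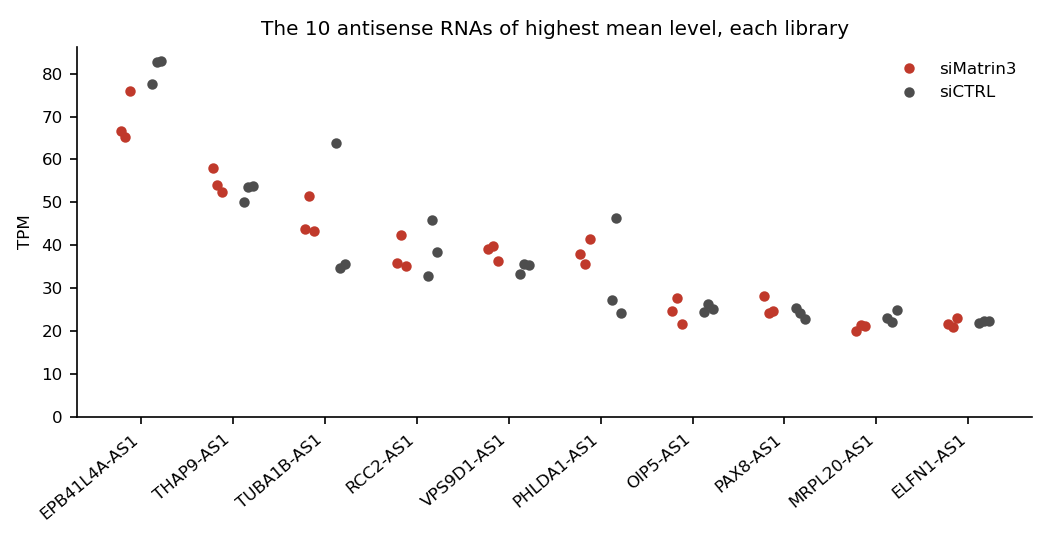
TPM (vertical axis) of the 10 antisense RNAs of highest mean level in each siMatrin3 library (red) and each siCTRL library (grey). EPB41L4A-AS1 stood highest in every library, and TUBA1B-AS1 and PHLDA1-AS1 each had 1 siCTRL library far above the other two.

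A few antisense RNAs varied widely between libraries of a group. The 6 of widest spread at a mean of 5 TPM or more are given by their coefficient of variation, whose median over all 234 was 12.0% in siMatrin3 libraries and 13.0% in siCTRL libraries. TUBA1B-AS1, opposite the alpha-tubulin gene TUBA1B (mean 705 TPM), had 43.7, 51.4 and 43.3 TPM in siMatrin3 libraries, against 63.9, 34.7 and 35.7 TPM in siCTRL libraries. PHLDA1-AS1 had 38.0, 35.6 and 41.6 TPM in siMatrin3 libraries, against 27.3, 46.4 and 24.3 TPM in siCTRL libraries. PRR11-AS1 had 9.17, 9.37 and 9.59 TPM in siMatrin3 libraries, against 6.72, 14.4 and 9.29 TPM in siCTRL libraries. In siCTRL libraries the coefficient of variation was 38.7% for PRR11-AS1, 37.0% for TUBA1B-AS1, 36.8% for PHLDA1-AS1 and 34.1% for THUMPD3-AS1, while LIPE-AS1 (37.1%) and CIRBP-AS1 (30.8%) varied most in siMatrin3 libraries. TPM of the groups overlapped for all 6. The share of exon bases facing an opposite exon differed widely among them, with 100% for PRR11-AS1, 97.2% for PHLDA1-AS1, 35.5% for TUBA1B-AS1, 35.0% for LIPE-AS1, 7.66% for THUMPD3-AS1 and 0.295% for CIRBP-AS1.

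Position relative to the partner was read from GENCODE 44, on GRCh38, since the deposited tables (hg19) hold no coordinates. Partners named by the symbol were found for 231 antisense RNAs, and HOXA-AS3, HOXB-AS3 and HOXC-AS1 name a gene cluster only. Exons overlapped those of the partner on the opposite strand in 182, the loci overlapped without shared exon bases in 34, the loci did not overlap in 13, and FAM131B-AS2 and HILPDA-AS1 lay on the strand of their partner. The start lay within 1000 bases of the partner's start in 47. The median share of exon bases facing an opposite exon was 13.4%, it was 0% in 34 and 100% in 9, and 37 shared exon bases with another gene on their own strand. All but 3 were annotated as lncRNA genes.

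The main question was which antisense RNAs changed when Matrin3 was lowered. Of the 231 tested, 6 rose (PRRT3-AS1, HMGA2-AS1, USP2-AS1, TTN-AS1, TMEM147-AS1 and VPS9D1-AS1) and 6 fell (SYT15-AS1, FEZF1-AS1, CD27-AS1, OR2A1-AS1, TTC28-AS1 and WAC-AS1) at an adjusted p under 0.05 (edgeR quasi-likelihood test, Benjamini-Hochberg over 16786 genes). These 12 were 5.19% of those tested, while 11.0% of all genes were called, 5.05% higher and 5.97% lower. The median log2 fold change was -0.02 for the antisense RNAs and -0.00 for all genes. In bulk RNA, fewer cells that make a transcript and less of it per cell cannot be told apart. Scaled counts of the groups did not overlap in 50 antisense RNAs (21.6%, against 31.0% of all genes), and 33 had an unadjusted p under 0.05 (14.3%, against 26.0%). Leaving out a library lowered the count to 3 when it was siCTRL replicate 3, to 5 for siMatrin3 replicate 2, to 6 for siMatrin3 replicate 1, to 7 for siCTRL replicate 1 or siMatrin3 replicate 3, and to 11 for siCTRL replicate 2. With an offset for transcript length, the calls of PRRT3-AS1, HMGA2-AS1 and CD27-AS1 alone were kept, and with limma on either TPM scale those of PRRT3-AS1, SYT15-AS1 and CD27-AS1. The calls of TTN-AS1 and WAC-AS1 were also lost with DESeq2 (adjusted p = 0.054 and 0.055).

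Fewer reads stood behind the typical antisense RNA than behind the typical gene. The median mean count was 102 for the antisense RNAs and 767 for all genes tested, and the median standard error of the log2 fold change was 0.159 against 0.0708. Among genes of 1 to 2 TPM, 3.03% of the antisense RNAs (2 of 66) and 10.3% of all genes were called. The shares were 4.55% (4 of 88) and 11.4% at 2 to 5 TPM, and 7.69% (5 of 65) and 12.2% at 5 to 20 TPM. At 20 TPM or more they were 8.33% (1 of 12) and 12.4%. The share of antisense RNAs was the lower in each range of level, but each rests on few RNAs called, and no range was tested. They were also shorter (median length 949 bases, against 2135 bases for all genes tested). Whether counts or length bear on the share called was not tested. Of the 654 other lncRNA genes tested at 1 TPM or more, 45 (6.88%) were called. CALCRL-AS1, TRIM7-AS2 and RNF185-AS1 did not pass the count filter, and each had fewer than 10 counts in at least 4 libraries.

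**Figure D2:**
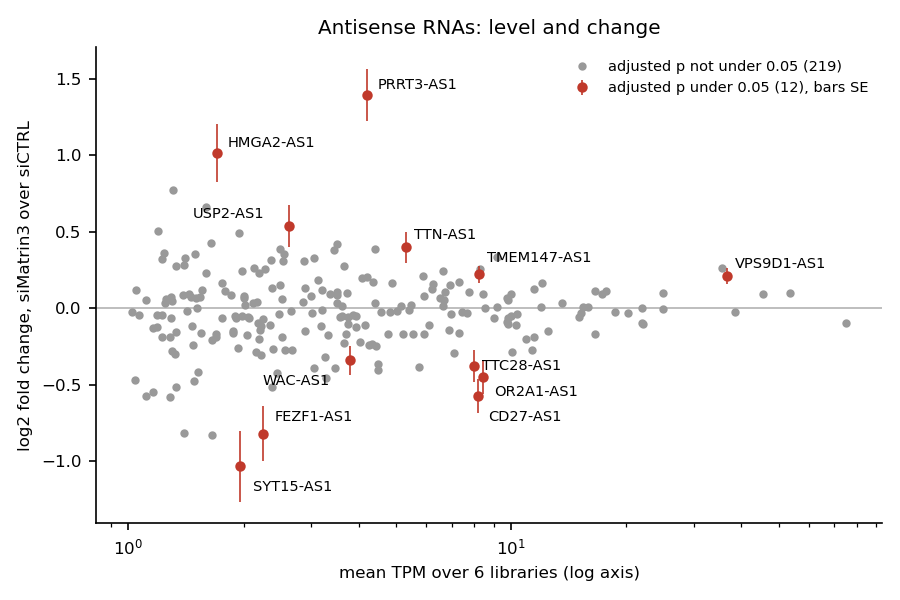
Mean TPM (log axis) against log2 fold change, siMatrin3 over siCTRL, for the 231 antisense RNAs tested, the 12 called in red with their SE. Most points lay near 0, the spread was wider at low levels, and PRRT3-AS1 and HMGA2-AS1 stood apart above.

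PRRT3-AS1 was the largest rise. This lncRNA on chromosome 3 lies opposite PRRT3, which encodes a proline-rich transmembrane protein, and the tables give it 1 transcript. It had 6.31, 5.34 and 6.60 TPM in siMatrin3 libraries, against 2.40, 2.26 and 2.36 TPM in siCTRL libraries, with no overlap. The log2 fold change was 1.40 ± 0.17 (SE; adjusted p = 0.0012, edgeR quasi-likelihood test), and it was called in all 15 alternative fits, between 1.08 and 1.47. PRRT3 itself had 0.95, 1.03 and 0.82 TPM in siMatrin3 libraries, against 0.92, 0.91 and 0.75 TPM in siCTRL libraries (log2 fold change 0.09 ± 0.14 SE, adjusted p = 0.73). The antisense RNA exceeded its partner in every library, and 32.7% of its exon bases face an exon of the other strand.

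HMGA2-AS1, on chromosome 12, was the only antisense RNA called together with its partner. It had 2.34, 2.27 and 1.99 TPM in siMatrin3 libraries, against 1.27, 1.49 and 0.89 TPM in siCTRL libraries, a log2 fold change of 1.02 ± 0.19 (SE; adjusted p = 0.009, edgeR). HMGA2, an architectural chromatin protein of embryonic and tumour cells, had 109, 103 and 105 TPM in siMatrin3 libraries, against 98.3, 89.2 and 95.0 TPM in siCTRL libraries (log2 fold change 0.23 ± 0.05 SE, adjusted p = 0.018). The antisense to sense ratio was higher in every siMatrin3 library than in any siCTRL library: its log2 was -5.48, -5.44 and -5.65 in siMatrin3 libraries and -6.17, -5.81 and -6.59 in siCTRL libraries, with no overlap (exact permutation p = 0.1, two-sided, the smallest that 3 against 3 allows). The pair was picked by calls on the same libraries, so the ratio is no separate evidence. The call of HMGA2 was lost without siCTRL replicate 3, siMatrin3 replicate 1 or siMatrin3 replicate 3 (adjusted p = 0.051 to 0.066, edgeR). With limma on TPM neither gene was called (adjusted p = 0.055 and 0.070 for HMGA2-AS1, 0.10 on both scales for HMGA2), nor was HMGA2 with a length offset (0.069). Of HMGA2-AS1, 6.37% of the exon bases face an opposite exon.

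USP2-AS1, VPS9D1-AS1 and TMEM147-AS1 rose less. USP2-AS1, opposite the ubiquitin-specific protease gene USP2 on chromosome 11, had 3.10, 3.71 and 2.74 TPM in siMatrin3 libraries, against 1.74, 2.35 and 2.12 TPM in siCTRL libraries (log2 fold change 0.54, adjusted p = 0.033, edgeR). VPS9D1-AS1, on chromosome 16, is a MYC-responsive lncRNA described in colon cancer cells and was the most abundant RNA called, with 39.2, 39.9 and 36.3 TPM in siMatrin3 libraries, against 33.3, 35.6 and 35.4 TPM in siCTRL libraries (0.21, adjusted p = 0.030). TMEM147-AS1, on chromosome 19, starts 429 bases from TMEM147, an endoplasmic reticulum protein gene, and had 8.68, 9.36 and 7.92 TPM in siMatrin3 libraries, against 7.34, 8.21 and 7.85 TPM in siCTRL libraries (0.22, adjusted p = 0.030). Its TPM values overlapped between groups, while its scaled counts did not. None of the partners USP2, VPS9D1 and TMEM147 passed the test (adjusted p = 0.59, 0.78 and 0.076). Without siCTRL replicate 1 or 3, or siMatrin3 replicate 1 or 2, each of these 3 RNAs lost its call, as did USP2-AS1 and TMEM147-AS1 without siMatrin3 replicate 3 (adjusted p = 0.064 to 0.12 over these fits, edgeR). With a length offset the adjusted p was 0.067 for USP2-AS1, 0.13 for VPS9D1-AS1 and 0.26 for TMEM147-AS1.

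**Figure D3:**
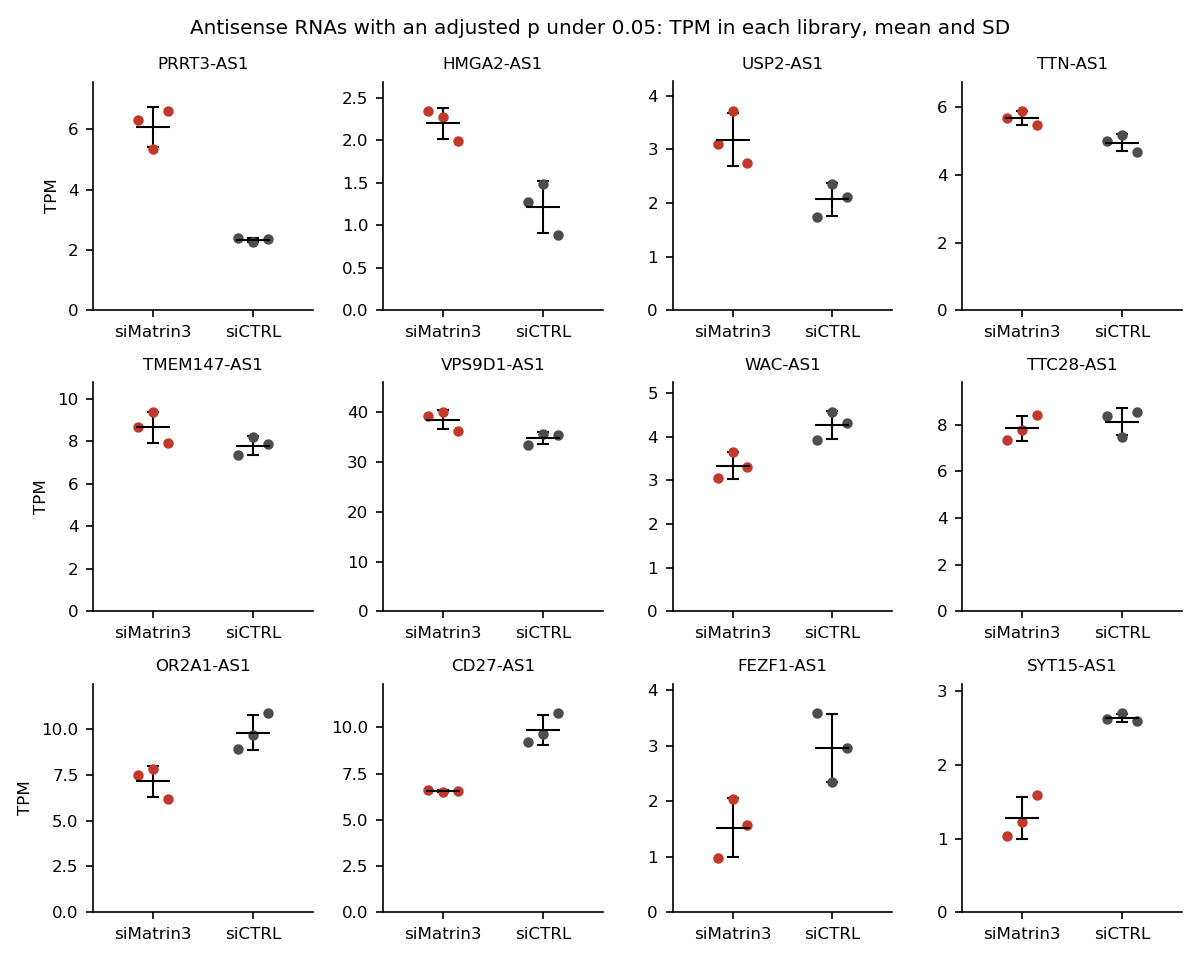
TPM in each library (points), with mean and SD, for the 12 antisense RNAs called, siMatrin3 (red) left of siCTRL (grey). Groups were apart in 10 panels and overlapped for TMEM147-AS1 and TTC28-AS1.

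Of those that fell, SYT15-AS1 and FEZF1-AS1 changed most and were among the scarcest. SYT15-AS1, on chromosome 10 opposite the synaptotagmin gene SYT15, had 1.03, 1.23 and 1.59 TPM in siMatrin3 libraries, against 2.62, 2.70 and 2.60 TPM in siCTRL libraries (log2 fold change -1.03 ± 0.23 SE, adjusted p = 0.020, edgeR). SYT15 has a near-identical copy in the genome, so the assignment of reads at this locus is uncertain. FEZF1-AS1, on chromosome 7, is an lncRNA studied in colorectal cancer and faces FEZF1, a transcription factor gene of the developing forebrain. It had 0.97, 2.04 and 1.57 TPM in siMatrin3 libraries, against 3.58, 2.35 and 2.95 TPM in siCTRL libraries (-0.82 ± 0.18 SE, adjusted p = 0.019). SYT15-AS1 lost its call without siCTRL replicate 3, siMatrin3 replicate 1 or siMatrin3 replicate 2 (adjusted p = 0.060 to 0.069, edgeR), and FEZF1-AS1 without siCTRL replicate 1 (adjusted p = 0.051). A length offset ended both calls (adjusted p = 0.054 for SYT15-AS1 and 0.069 for FEZF1-AS1), and limma on TPM that of FEZF1-AS1 (0.096 and 0.11). Neither partner passed the test, with log2 fold changes of -0.53 for SYT15 (adjusted p = 0.11) and -0.55 for FEZF1 (adjusted p = 0.31).

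CD27-AS1 gave the steadiest fall. It lies on chromosome 12 opposite CD27, a lymphocyte receptor gene of the TNF receptor family, which HCT116 cells hardly express. CD27-AS1 had 6.61, 6.49 and 6.58 TPM in siMatrin3 libraries, against 9.18, 9.62 and 10.8 TPM in siCTRL libraries (log2 fold change -0.57 ± 0.11 SE, adjusted p = 0.011, edgeR). It was called in 14 of 15 alternatives and was lost only without siCTRL replicate 3 (adjusted p = 0.057). CD27 had 0.21 to 0.30 TPM in siMatrin3 libraries and 0.21 to 0.32 TPM in siCTRL libraries, and the antisense RNA stood above it in every library.

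WAC-AS1, on chromosome 10, starts 573 bases from WAC, whose product acts in histone H2B ubiquitination, and had 3.05, 3.66 and 3.30 TPM in siMatrin3 libraries, against 3.92, 4.56 and 4.31 TPM in siCTRL libraries (log2 fold change -0.34, adjusted p = 0.048, edgeR). WAC had 56.9 to 65.9 TPM in siMatrin3 libraries and 56.1 to 67.1 TPM in siCTRL libraries (adjusted p = 0.63). OR2A1-AS1, on chromosome 7 near an olfactory receptor cluster, had 7.46, 7.79 and 6.19 TPM in siMatrin3 libraries, against 8.90, 9.63 and 10.8 TPM in siCTRL libraries (-0.45, adjusted p = 0.030). It shares 41.0% of its exon bases with another gene on the same strand, so this value is uncertain. OR2A1 itself had at most 0.07 TPM and was not tested. Leaving out siCTRL replicate 2 or 3 or siMatrin3 replicate 3 ended both calls, siMatrin3 replicate 1 that of WAC-AS1 and siMatrin3 replicate 2 that of OR2A1-AS1 (adjusted p = 0.11 to 0.14 for WAC-AS1 and 0.051 to 0.11 for OR2A1-AS1, edgeR). With a length offset the adjusted p was 0.11 for WAC-AS1 and 0.095 for OR2A1-AS1.

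The weighted transcript length, RSEM's mean length of a gene's transcripts by their abundance, was compared as well, and the 5 antisense RNAs of smallest unadjusted p are given. TTC28-AS1, on chromosome 22, had 4.81, 5.06 and 5.97 CPM (expected counts scaled by library total) in siMatrin3 libraries, against 6.98, 6.46 and 7.36 CPM in siCTRL libraries (log2 fold change -0.38, adjusted p = 0.042, edgeR). Its weighted length was 986, 973 and 1050 bases in siMatrin3 libraries, against 1209, 1236 and 1234 bases in siCTRL libraries, with no overlap. Its TPM was 7.34, 7.79 and 8.42 in siMatrin3 libraries, against 8.38, 7.46 and 8.53 in siCTRL libraries, and with an offset for length the log2 fold change was -0.03. The call was also lost without siCTRL replicate 1 or 3 or siMatrin3 replicate 1 or 2 (adjusted p = 0.089 to 0.15, edgeR).

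TTN-AS1, on chromosome 2 opposite the titin gene TTN, went the other way. Its CPM were 4.97, 5.18 and 4.63 in siMatrin3 libraries, against 3.96, 3.76 and 3.65 in siCTRL libraries (log2 fold change 0.40, adjusted p = 0.029, edgeR). Its weighted length was 1252, 1254 and 1213 bases in siMatrin3 libraries, against 1161, 1066 and 1134 bases in siCTRL libraries, and its TPM was 5.69, 5.88 and 5.49 in siMatrin3 libraries, against 4.99, 5.18 and 4.68 in siCTRL libraries. Its call was lost without any library other than siCTRL replicate 1 (adjusted p = 0.056 to 0.10, edgeR). The log2 fold change was 0.22 with a length offset (adjusted p = 0.30) and 0.17 and 0.20 with limma on log2(TPM + 1) and log2(TPM + 0.1) (adjusted p = 0.24 on both). TTN-AS1 has 49 annotated transcripts, and 54.9% of its exon bases face TTN exons. TTN itself had a similar log2 fold change of 0.38 (adjusted p = 0.060, edgeR) and was not called. Its scaled counts did not overlap between groups, while its TPM did. Whether reads of TTN bear on the value of TTN-AS1 was not tested.

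EPB41L4A-AS1, the most abundant of all, was not called on counts (log2 fold change -0.09, adjusted p = 0.27, edgeR). Its TPM was nevertheless lower in every siMatrin3 library, with 66.5, 65.2 and 75.9 TPM in siMatrin3 libraries, against 77.6, 82.6 and 83.1 TPM in siCTRL libraries. Its weighted length was 927, 920 and 896 bases in siMatrin3 libraries, against 870, 871 and 834 bases in siCTRL libraries. NUTM2A-AS1, on chromosome 10, was likewise not called on counts (log2 fold change -0.15, adjusted p = 0.43, edgeR), with 9.84, 12.3 and 11.9 TPM in siMatrin3 libraries, against 12.7, 15.3 and 13.0 TPM in siCTRL libraries. Its weighted length was 793, 777 and 772 bases in siMatrin3 libraries, against 752, 730 and 733 bases in siCTRL libraries. LMNTD2-AS1, on chromosome 11, had a weighted length of 1384, 1347 and 1303 bases in siMatrin3 libraries, against 1470, 1452 and 1534 bases in siCTRL libraries, while its TPM overlapped. Weighted lengths of the groups were apart for each of the 5, which their choice by smallest unadjusted p favours. Lengths were shorter in siMatrin3 libraries for TTC28-AS1 and LMNTD2-AS1 and longer for TTN-AS1, EPB41L4A-AS1 and NUTM2A-AS1. None of these length changes passed the test over all genes (limma adjusted p = 0.32 for TTC28-AS1, 0.53 for NUTM2A-AS1, 0.56 for LMNTD2-AS1, 0.64 for TTN-AS1 and 0.64 for EPB41L4A-AS1). Of 127 antisense RNAs tested for length, 0 passed the adjusted threshold, and 14 (11.0%) had an unadjusted p under 0.05, against 6.11% of all genes tested for length. Over all genes, 1 was called.

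**Figure D4:**
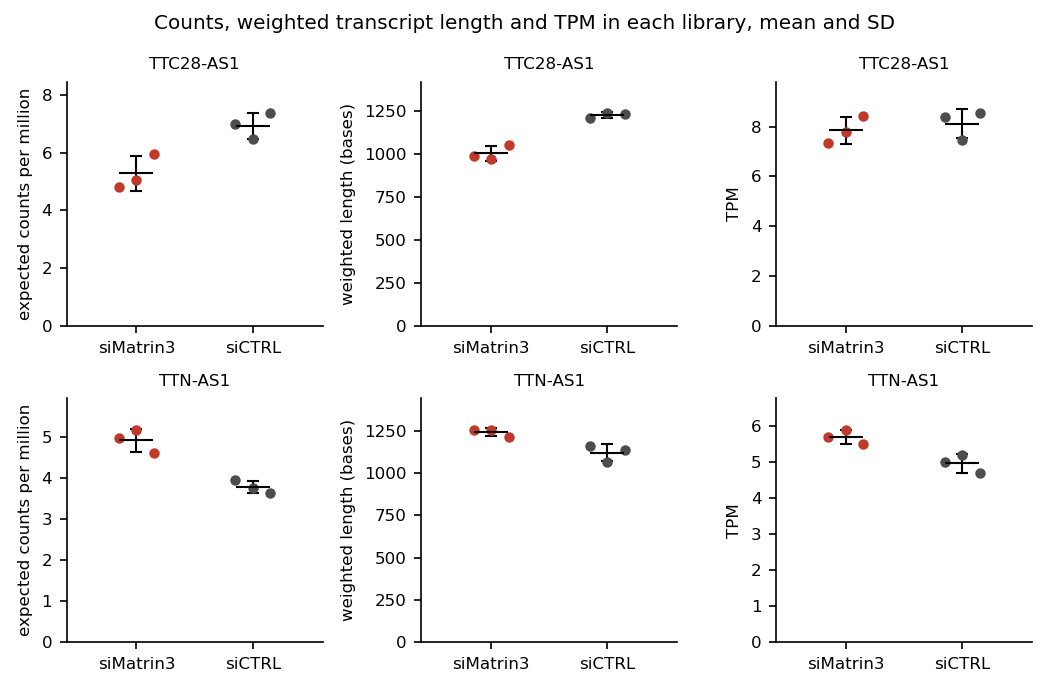
CPM, weighted transcript length in bases and TPM in each library, with mean and SD, for TTC28-AS1 and TTN-AS1, siMatrin3 (red) left of siCTRL (grey). TTC28-AS1 had fewer counts and a shorter length in all siMatrin3 libraries while its TPM overlapped, and TTN-AS1 had more counts and a greater length.

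Each antisense RNA was then set beside its sense partner. The partners comprised 229 genes, of which 219 were tested, 18 rose and 13 fell (14.2%, against 11.0% of all genes). Leaving out siCTRL replicate 1 or siMatrin3 replicate 2 gave 16 partners, leaving out siCTRL replicate 3 gave 10, and leaving out siMatrin3 replicate 3 gave 8. Both genes were tested in 218 pairs: HMGA2-AS1 and HMGA2 were both called, in 10 pairs the antisense RNA alone was called, and in 28 the partner alone. The log2 fold changes had the same sign in 125 pairs and opposite signs in 93, and across pairs, which share libraries and, where exons overlap, possibly reads, Pearson's r was 0.27 and Spearman's rho 0.25. In the 47 pairs whose starts lay within 1000 bases, r was -0.07 and rho -0.02.

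**Figure D5:**
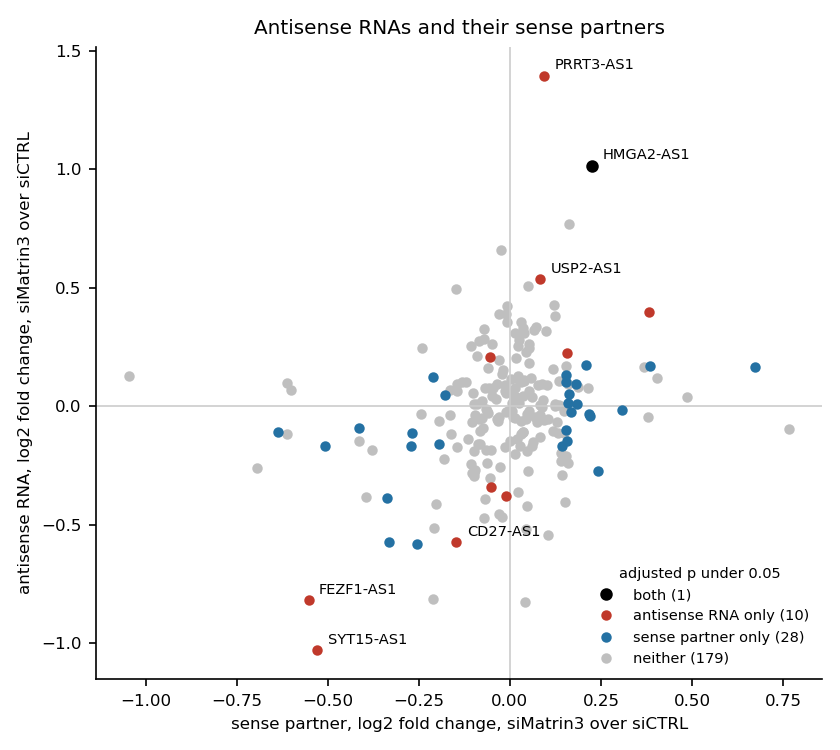
Log2 fold change, siMatrin3 over siCTRL, of the sense partner (horizontal axis) and of the antisense RNA (vertical axis) in 218 pairs, coloured by which passed an adjusted p of 0.05. Only HMGA2-AS1 and HMGA2 were both called, and PRRT3-AS1 stood highest beside a partner near 0.

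Partners exceeded their antisense RNAs in most pairs. The median ratio of antisense RNA to partner was 0.236 in TPM, 153 antisense RNAs were below their partner in every library, and 60 were above it in every library, EPB41L4A-AS1 (42.4-fold) and CD27-AS1 (30.6-fold) among them. The ratio of TPM did not overlap between groups in 33 of the 231 pairs (14.3%). Of the 42 pairs in which at least 1 gene was called, it did not overlap in 13, and in 15 when counts were used. The 42 were picked by calls on the same libraries, which favours separated ratios, so their counts are no separate evidence. No exact test with 3 libraries a group can go below 0.1.

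Partners called alone are given with their antisense RNAs, which did not pass the test or, for CALCRL-AS1, the count filter before it. GAS6, the ligand of the TAM receptor tyrosine kinases, fell to 19.8, 21.9 and 22.6 TPM in siMatrin3 libraries, against 31.5, 31.6 and 29.9 TPM in siCTRL libraries (log2 fold change -0.51), while GAS6-AS1 had 3.83, 3.66 and 2.92 TPM in siMatrin3 libraries and 3.97, 3.66 and 4.18 TPM in siCTRL libraries. DDN, which encodes dendrin, had 5.52, 5.71 and 5.74 TPM in siMatrin3 libraries, against 4.01, 3.18 and 3.57 TPM in siCTRL libraries (0.67), while DDN-AS1 had 11.6, 13.3 and 13.3 TPM in siMatrin3 libraries and 12.0, 10.6 and 11.5 TPM in siCTRL libraries. Both DDN and GAS6 were called in all 15 alternatives. MSRB3, a methionine sulfoxide reductase gene, fell by 0.64 on the log2 scale, and SPRY4, an inhibitor of receptor tyrosine kinase signalling, fell by 0.34. CALCRL, the receptor of CGRP and adrenomedullin, fell by 0.67, EPB41L4A fell by 0.41 and MYLK, the myosin light chain kinase, fell by 0.33, while GATA2, a transcription factor, rose by 0.38. Single libraries ended the calls of EPB41L4A (siCTRL replicate 2 or 3, siMatrin3 replicate 1 or 3), GATA2 (siCTRL replicate 1 or 3, siMatrin3 replicate 2 or 3) and MYLK (any but siCTRL replicate 2), with adjusted p = 0.057 to 0.11 in edgeR. A length offset ended these 3 calls (adjusted p = 0.44, 0.069 and 0.19) and that of MSRB3 (0.065). Limma on either TPM scale ended the calls of EPB41L4A, GATA2, MYLK, MSRB3 and SPRY4, and limma on log2(TPM + 0.1) that of CALCRL. The log2 fold change was -0.11 for MSRB3-AS1, -0.39 for SPRY4-AS1, -0.57 for MYLK-AS1 and 0.17 for GATA2-AS1, none of which passed the test (adjusted p = 0.71, 0.41, 0.26 and 0.29, edgeR).

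All 12 called antisense RNAs belonged to the 182 whose exons overlap those of the partner. Of these, 180 were tested and 6.67% were called, while 0 of the 33 tested with overlapping loci alone and 0 of the 13 with separate loci were called (edgeR; 4 and 1 had an unadjusted p under 0.05). Among the 34 with no exon base facing another gene in this annotation, 0 were called by edgeR and 4 (11.8%) had an unadjusted p under 0.05. Where at least 50% of exon bases faced an opposite exon, 32 were tested and 1 (3.13%) was called by edgeR. In that set 2 (6.25%) had an unadjusted p under 0.05. Over all genes tested, 11.0% were called and 26.0% had an unadjusted p under 0.05. Of the 47 with starts within 1000 bases of the partner, TMEM147-AS1 and WAC-AS1 were called, against 10 of 179 of the rest. The shares of these sets of antisense RNAs differ by a few RNAs, and no test of the difference was made.

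Several antisense RNAs with roles described in other work were expressed and did not pass the test. OIP5-AS1, the human counterpart of cyrano, which binds the microRNA miR-7, had 24.7, 27.6 and 21.6 TPM in siMatrin3 libraries, against 24.5, 26.4 and 25.1 TPM in siCTRL libraries (log2 fold change -0.00 ± 0.06 SE). ZEB1-AS1, which shares its promoter region with the mesenchymal transcription factor gene ZEB1, had 2.97, 1.75 and 1.22 TPM in siMatrin3 libraries, against 1.49, 2.24 and 2.36 TPM in siCTRL libraries. HOXB-AS3, which encodes a small peptide described in colon cancer cells, had 2.87, 2.22 and 3.51 TPM in siMatrin3 libraries, against 3.81, 3.27 and 3.90 TPM in siCTRL libraries (adjusted p = 0.37, edgeR). MCM3AP-AS1 came closest, with 4.17, 3.66 and 3.32 TPM in siMatrin3 libraries, against 3.01, 3.25 and 3.31 TPM in siCTRL libraries (log2 fold change 0.38, adjusted p = 0.063, edgeR). FGD5-AS1, MAPKAPK5-AS1, GABPB1-AS1, PCBP1-AS1, LOXL1-AS1, RUSC1-AS1 and SBF2-AS1 had log2 fold changes between -0.27 and 0.17.

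Large fitted changes without a call came from scarce antisense RNAs. INTS6-AS1 had 1.59, 0.89 and 1.13 TPM in siMatrin3 libraries, against 2.09, 2.0 and 2.24 TPM in siCTRL libraries (log2 fold change -0.83 ± 0.24 SE, adjusted p = 0.052, edgeR). NR2F2-AS1 had 0.92, 1.08 and 0.53 TPM in siMatrin3 libraries, against 3.21, 1.07 and 1.57 TPM in siCTRL libraries (-0.81, adjusted p = 0.085). The groups were apart for INTS6-AS1 and overlapped for NR2F2-AS1. UNC5B-AS1 (0.77), ZNF687-AS1 (0.66) and RGMB-AS1 (-0.58) also overlapped.

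Genes that limit short-lived noncoding RNA were read in the same fit. Of 44 genes of the nuclear exosome, its adaptors, the cap-binding and Integrator complexes, and transcript cleavage and decay, 5 rose and 0 fell (11.4% higher, against 5.05% of all genes), with a median log2 fold change of 0.07. In either direction, 11.4% of the list was called, against 11.0% of all genes. The list was abundant (median 31.8 TPM). Among all genes tested at 20 TPM and over, 453 of 5219 rose and 195 fell, with a median log2 fold change of 0.03. The 5 that rose were the Integrator subunits INTS3 (0.21, adjusted p = 0.028, edgeR), INTS8 (0.18, adjusted p = 0.027) and INTS14 (0.16, adjusted p = 0.018), the cap-binding partner SRRT (0.20, adjusted p = 0.027) and the exosome subunit EXOSC8 (0.18, adjusted p = 0.034). Leaving out siCTRL replicate 3 gave 0 calls in this list, siMatrin3 replicate 2 or 3 gave 1, siMatrin3 replicate 1 gave 2, and siCTRL replicate 1 or 2 gave 3. With a length offset or limma on TPM it was 0.

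The antisense RNAs took 0.123 to 0.128% of counts in siMatrin3 libraries and 0.123 to 0.135% in siCTRL libraries. Their summed TPM was 1372, 1408 and 1391 in siMatrin3 libraries, against 1384, 1495 and 1387 in siCTRL libraries, so the groups overlapped. The highest sum was that of siCTRL replicate 2.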

How the data were processed

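Libraries of poly(A) RNA from HCT116 cells, 3 siMatrin3 and 3 siCTRL, were grouped by their labels. Per the study's methods, the authors used STAR to align read pairs and RSEM to quantify genes. STAR 2.5.1, cutadapt, RSEM and the hg19 build are named in the submitters' notes, and the methods give another STAR version and word the time of harvest differently. The authors deposited expected counts (estimated counts that divide shared reads) and TPM. The deposited FPKM values were not used. Deposited tables also give transcript length and effective length, averaged by the authors' RSEM.

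The antisense RNAs, gene lists and named genes were chosen with earlier results of these data known. Symbols were taken from a gene name table, and 88.3% of the 56632 genes had one. Named genes were those called, the 10 of highest mean TPM, those nearest 1 TPM, the 5 largest changes not called, antisense RNAs studied in other work, partners called alone (up to 8), and called decay genes (up to 4). INTS14 was added after its value was seen, as were KRT18, TRIM7-AS2, RNF185-AS1, PRR11-AS1, LIPE-AS1, THUMPD3-AS1, CIRBP-AS1, NUTM2A-AS1, LMNTD2-AS1, and the gene names given beside counts of 3 or fewer.

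After rounding of expected counts, filterByExpr and TMM scaling, the two-sided quasi-likelihood test of edgeR 4.0.16 (R 4.3.3) was run without covariates, with Benjamini-Hochberg adjusted p under 0.05 over 16786 genes. Weighted length was tested with limma 3.58.1 on the log2 scale, for genes of at least 2 transcripts and 50 counts in every library. Antisense to sense ratios used log2((TPM + 0.1) / (TPM + 0.1)) with an exact permutation test. DESeq2, which the study used in another version, was an alternative (version 1.42.0 here). Others were upper quartile and RLE scaling, omitting the filter, 1 CPM in 3 libraries, a replicate block, each library left out, a length offset, limma on log2(TPM + 1) and log2(TPM + 0.1), and adjusted p under 0.01. The fit was tested on simulated data. Libraries held 40808173 to 54185650 expected counts, and p-values judge the difference between groups against the spread between libraries of a group. Overlap and distances were computed in GENCODE 44 (GRCh38), another build than that of the tables.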

Additional observations from a re-analysis of the deposited data

How the results depend on the processing

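The number of antisense RNAs called (12) became 20 once the filter on low counts was dropped, 3 under a length offset, 3 with limma on log2(TPM + 1), 3 with limma on log2(TPM + 0.1), 2 at an adjusted p under 0.01, and 3 to 11 with 1 library left out. In the 34 with no exon facing another gene it was 0, a smaller set. The number of sense partners called (31) was 9 with a length offset, 4 and 3 with limma on the TPM scales, 9 at an adjusted p under 0.01, and 8 to 24 with 1 library left out. The number of nuclear RNA decay genes called (5) was 0 with a length offset and 0 with limma on either TPM scale, and 0 to 3 with 1 library left out. Why these counts moved was not tested, beyond the fewer libraries or RNAs where some were left out. PRRT3-AS1 and MATR3 were called in all 15 alternative fits, CD27-AS1 in 14, HMGA2-AS1 in 13, FEZF1-AS1 and SYT15-AS1 in 11, and the other called antisense RNAs in 6 to 8. No value changed its direction while called.

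Whether replicate numbers pair the libraries could not be settled from so few libraries. Deviations of libraries with the same number correlated at 0.177, 0.0896 and 7.21e-05. Those of libraries with different numbers correlated at -0.145 to 0.0641, and not every library correlated best with its own number. With the replicate number as a block, 16 antisense RNAs, 49 sense partners and 10 nuclear RNA decay genes were called.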
